A study of Mus musculus with 3 samples.

Results

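The genes described here are 10 genes of antigen presentation by major histocompatibility complex (MHC) class I: the heavy chains H2-K1, H2-D1, H2-Q4 and H2-T23, the light chain B2m, the peptide transport and loading genes Tap1, Tap2 and Tapbp, the peptide-trimming enzyme Erap1 and the transactivator Nlrc5. They were chosen by symbol, and all 10 were found among the 18287 genes listed in both comparisons with control. RNA was sequenced from purchased mouse aortic endothelial cells, the cells that line the aorta, in 3 groups with 1 library each. The first group is labelled control, with no treatment named. The second group had glucose oxidase at 5 mU/mL for 30 min, an enzyme that oxidises glucose and releases hydrogen peroxide. The third had the same glucose oxidase exposure and ethyl-2-hydroxybenzylamine (Et2HOBA) at 0.2 mM for 24 h, a scavenger of isolevuglandins, which are reactive products of lipid oxidation. The order of the exposures, the strain of the mice and the number of cultures are not stated in the labels. No library with Et2HOBA alone was analysed here.

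MHC class I molecules display peptides from inside the cell to CD8 T cells, and nearly every nucleated cell carries them. Proteins are cut by the proteasome, the fragments are carried into the endoplasmic reticulum by the transporter that Tap1 and Tap2 form, trimmed there by Erap1, and loaded with the help of tapasin, the product of Tapbp, onto a heavy chain bound to beta-2-microglobulin, the product of B2m. Endothelial cells express the pathway at rest and express more of it under interferon, which acts through STAT and IRF factors and through NLRC5, a coactivator that joins RFX, CREB/ATF and NF-Y factors on class I promoters.

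With 1 library per group there is no replicate check and no test between conditions. Each 95% interval is an exact Clopper-Pearson interval on how the reads of a gene divide between a pair of libraries. It covers counting error only and sets library against library, not treatment against treatment. In bulk RNA, fewer cells of a type and less RNA per cell cannot be told apart. Reads of the library with glucose oxidase alone were computed back from its deposited log2 differences. Below, the 3 libraries are called the control, the oxidase and the combined library, and read counts given in a row follow that order. A level is a normalized read count. For log2 ratios a pseudocount of 10 was added to each level, which shrinks the differences of low genes, and a gene is counted as higher or lower at 1 log2 unit or more. The libraries held 34869768 to 40046418 reads over the 18258 genes with a count, 0 included, for all 3. The endothelial markers Cdh5, Pecam1 and Tie1 had 26919 to 78258 reads in every library, the class II coactivator Ciita had 0 to 5, and the class II chains H2-Aa, H2-Ab1 and H2-Eb1 were not listed.

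All 10 genes had a lower level in both treated libraries than in control, though for Nlrc5 the counting interval included equal levels. After glucose oxidase 1 of the 10, H2-Q4, was lower by the limit, against 8.61% of all genes and 4.77% of protein-coding genes. The median log2 ratio was -0.56, against -0.01 over all genes. With glucose oxidase plus Et2HOBA 5 of the 10 were lower by the limit, against 8.05% of all genes and 9.30% of protein-coding genes. The median was -0.80, against 0.00 over all genes. These 5 were H2-Q4, Tapbp, H2-K1, Erap1 and H2-T23. A ratio below 0 by any amount was found in 46.0% of protein-coding genes after glucose oxidase and in 49.9% with Et2HOBA. Over all 18258 genes it was found in 9335 and 9132. None of the 10 was higher by the limit in these comparisons or between the treated libraries, against 4.07%, 6.65% and 6.40% of all genes and 4.52%, 7.33% and 0.973% of protein-coding genes. The comparisons with control share that library, so they are not separate support for a direction. For 9 of the 10 genes the counting interval lay below equal levels in each comparison with control, and Nlrc5 was the exception. Close to the limit after glucose oxidase were H2-K1 at -0.97 and Tapbp at -0.95, which did not reach it, and with Et2HOBA H2-T23 at -1.02, which did. In the authors' deposited tables, whose scale shrinks low counts, the 10 values run from -1.39 (H2-Q4) to -0.10 (H2-D1) after glucose oxidase and from -2.70 (H2-Q4) to -0.07 (Nlrc5) with Et2HOBA.

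Summed over the 10 genes, the normalized count was 51656, 38169 and 33660 in the control, oxidase and combined libraries. B2m and H2-D1 supply most of this sum, so it follows those genes.

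Per kilobase of annotated exon, B2m had the highest level in every library and H2-D1 the next. In control B2m stood at 21378 normalized reads per kilobase, H2-D1 at 7614, Tapbp at 1652, H2-Q4 at 632 and H2-T23 at 419. Erap1, H2-K1, Tap2 and Tap1 followed at 241.7 to 245 normalized reads per kilobase, and neighbours among these 4 could not be separated beyond counting error. Nlrc5 was lowest, at 5.13. The order below Tapbp differed between libraries: H2-Q4 ranked 4 in control, 6 after glucose oxidase, where it could not be separated from Tap1, Tap2 or Erap1, and 9 with Et2HOBA.

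**Figure D1:**
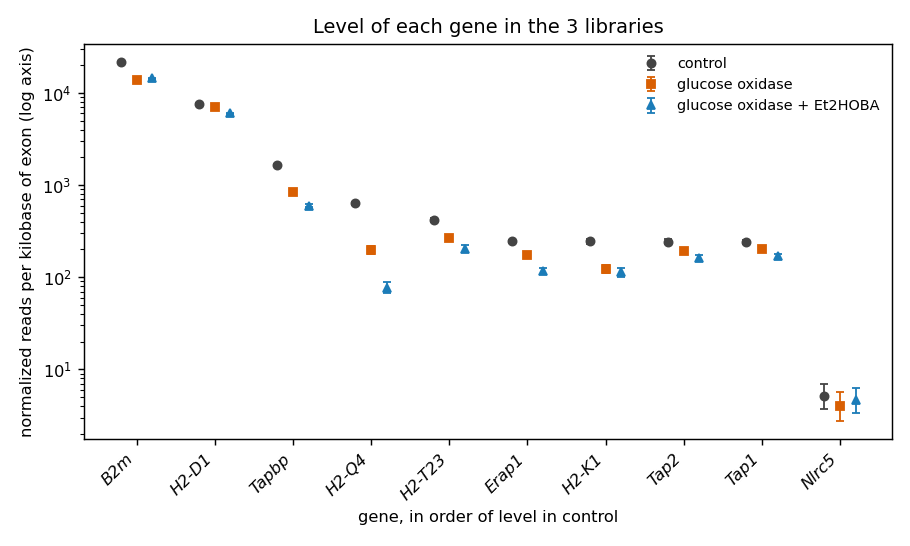
Level of each gene in normalized reads per kilobase of exon, on a log axis, in the control (circles), glucose oxidase (squares) and glucose oxidase plus Et2HOBA (triangles) libraries; bars are 95% Poisson counting intervals. The control point is the highest for every gene, and H2-Q4 is at 632 in control and 76.8 in the combined library.

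Among the heavy chains the differences were unequal. H2-D1 (ENSMUSG00000073411.12, chromosome 17, 35262730 to 35267499), a classical heavy chain that presents peptides to CD8 T cells, had 20264 control reads, 17665 oxidase reads and 16164 combined reads. Its level was 0.932 of control after glucose oxidase (95% interval 0.913 to 0.951) and 0.793 with Et2HOBA (0.776 to 0.809), the smallest difference from control among the 9 genes whose interval excluded equal levels. H2-K1 (ENSMUSG00000061232.16, chromosome 17, 33996017 to 34000347), the other classical heavy chain, had 741, 350 and 344 reads in the same order. Its level was 0.505 of control after glucose oxidase (0.443 to 0.574) and 0.461 with Et2HOBA (0.405 to 0.525). The treated libraries lay close together for H2-K1, with a ratio of 0.914 (0.785 to 1.06), and apart from control.

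H2-Q4 (ENSMUSG00000035929.11, chromosome 17, 35379617 to 35385290), a heavy chain of the Q region outside the classical group, had 1693, 496 and 207 reads in the control, oxidase and combined libraries. The control library was highest and the library with Et2HOBA lowest. The level was 0.313 of control after glucose oxidase (95% interval 0.283 to 0.346) and 0.121 with Et2HOBA (0.105 to 0.140), and the log2 ratios were -1.66 and -2.98. H2-T23 (ENSMUSG00000067212.8, chromosome 17, 36029773 to 36032855), which encodes a nonclassical molecule recognised by an inhibitory receptor of natural killer cells, had 1250, 748 and 614 reads. Its level was 0.640 (0.584 to 0.701) and 0.488 (0.442 to 0.538) of control.

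The make-up of the heavy chain reads therefore differed between libraries. H2-D1 held 84.6% of the reads of the 4 heavy chains in control (95% interval 84.2 to 85.1), 91.7% after glucose oxidase (91.3 to 92.1) and 93.3% with Et2HOBA (92.9 to 93.6). H2-Q4 held 7.07% (6.75 to 7.401), 2.58% (2.36 to 2.81) and 1.19% (1.04 to 1.37). There were 27.3 reads of H2-D1 for each read of H2-K1 in the control library, 50.5 in the oxidase library and 46.99 in the combined library.

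Heavy chains resemble one another, so their counts turn on the handling of reads that match several genes, and on the alleles of the mice. Of the 50-base stretches in the longest transcript, 22.03% of H2-Q4, 15.0% of H2-T23, 14.3% of H2-D1 and 8.11% of H2-K1 also occur in another annotated gene. The share was 2.00% for Tapbp and under 1% for Tap1 and Tap2, and it was 0 for B2m, Erap1 and Nlrc5. Processed pseudogenes, which resemble their parent genes by origin, had a median log2 ratio of -0.82 after glucose oxidase and of 0.13 with Et2HOBA, both against control. The part of shared reads and of allelic differences from the reference in the heavy chain values was not tested. Of the genes with no shared stretch, B2m and Erap1 were below control beyond counting error in both treated libraries, and Nlrc5 was not.

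B2m (ENSMUSG00000060802.8, chromosome 2, 122147686 to 122153083), the light chain common to all class I molecules, had 18973 control reads, 11594 oxidase reads and 12859 combined reads. Both treated libraries were below control. The level was 0.653 of control after glucose oxidase (95% interval 0.638 to 0.669) and 0.673 with Et2HOBA (0.658 to 0.689). Unlike H2-D1, it was not lower with Et2HOBA than without: the ratio of the treated libraries was 1.03 (1.005 to 1.06), and this turned below 1 with total-count scaling, at a log2 ratio of -0.05. There were 0.936 reads of B2m for each read of H2-D1 in the control library, 0.656 in the oxidase library and 0.796 in the combined library.

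The transporter genes differed less from control than tapasin did. Tap1 (ENSMUSG00000037321.17, chromosome 17, 34187553 to 34197225) had 1366, 1070 and 955 reads in the control, oxidase and combined libraries, and levels of 0.837 (95% interval 0.772 to 0.908) and 0.695 (0.639 to 0.755) of control. Tap2 (ENSMUSG00000024339.12, chromosome 17, 34203527 to 34216321), the partner subunit, had 950, 698 and 637 reads, and levels of 0.785 (0.711 to 0.867) and 0.666 (0.602 to 0.737) of control. Reads of Tap1 per read of Tap2 were 1.44 (1.32 to 1.56), 1.53 (1.39 to 1.69) and 1.499 (1.35 to 1.66) in the 3 libraries, with overlapping intervals.

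Tapbp (ENSMUSG00000024308.15, chromosome 17, 33915899 to 33929292), which encodes tapasin, the bridge between the transporter and an empty heavy chain, had 6185, 2980 and 2258 reads. Its level was 0.515 of control (95% interval 0.493 to 0.538) and 0.363 (0.346 to 0.381). Erap1 (ENSMUSG00000021583.7, chromosome 13, 74639568 to 74693201), the aminopeptidase that trims peptides to the length class I grooves hold, had 1841, 1213 and 881 reads. Its level was 0.704 (0.655 to 0.758) and 0.475 (0.438 to 0.516) of control. For both genes the 3 libraries stood in the same order, with control highest and Et2HOBA lowest.

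Nlrc5 (ENSMUSG00000074151.13, chromosome 8, 94434356 to 94527272) had 45, 33 and 41 reads. Its level was 0.784 (95% interval 0.485 to 1.26) and 0.905 (0.578 to 1.41) of control, and a difference was not detectable at this depth. The intervals leave room for a level down to 0.485 of control after glucose oxidase.

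**Figure D2:**
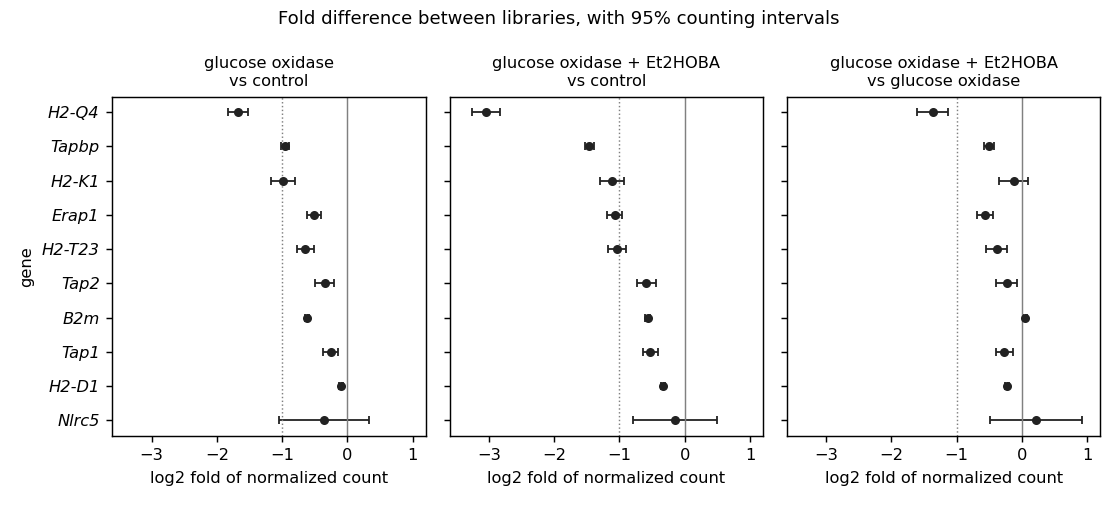
Log2 fold difference of normalized count (no pseudocount) for each gene in the 3 comparisons, with 95% counting intervals; the solid line marks equal levels and the dotted line 1 log2 unit lower. H2-Q4 lies farthest left in each panel, Nlrc5 has the widest intervals, and B2m lies at 1.03-fold in the comparison of the treated libraries.

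The combined library was also set against the oxidase library, which pairs the oxidase with and without the scavenger. Here 1 of the 10 genes, H2-Q4, was lower by the limit, against 2.15% of all genes and 2.34% of protein-coding genes, and the median log2 ratio was -0.25 against 0.00 over all genes. With the authors' transformation of this pair, whose constants were fitted to their table, H2-Q4 stood at -0.46 and none of the 10 passed the limit. H2-Q4 with Et2HOBA was at 0.388 of the level without it (95% interval 0.328 to 0.457), Erap1 at 0.675 (0.618 to 0.737), Tapbp at 0.704 (0.667 to 0.744) and H2-T23 at 0.763 (0.685 to 0.850). Tap1, at 0.830 (0.759 to 0.906), Tap2, at 0.848 (0.761 to 0.946), and H2-D1, at 0.850 (0.832 to 0.869), had smaller differences. In this comparison 7 intervals lay below equal levels, the interval of B2m lay above, and those of H2-K1 and Nlrc5 spanned it. Levels stepped down from control to glucose oxidase to glucose oxidase plus Et2HOBA in 8 of the 10 genes, and B2m and Nlrc5 were the exceptions. The same was found in 28.1% of all genes and 31.7% of protein-coding genes. For H2-K1, among the 8, the step between the treated libraries was within counting error. That the combined library lay farther from control than the oxidase library in these 8 follows from how they were picked.

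Promoter sequence is shown for 6 of the genes: the heavy chains, B2m and Erap1. Class I promoters are known for a compact set of elements. Lower levels in the treated libraries do not set these 6 apart, as all 10 genes had them. The windows of Tap1 and Tapbp were searched but are not printed. RefSeq promoter windows on GRCm38.p6, from 250 bases before to 50 after the transcript start, were found for 8 of the 10 genes, all but Tap2 and Nlrc5. Both strands were searched for the interferon-stimulated response element (ISRE: GAAA, any 2 bases, GAAA), the gamma-activated site (GAS, TTCNNNGAA), a kappa-B element (GGG, any 2 bases, TTTCC), the core of the X2 box (TGACG) and the Y box (ATTGG). The lines run from 180 bases before to 20 after the start, 5′ to 3′ along the gene, and capitals mark every match to one of these motifs on either strand.
H2-D1, chr17:35262914-35263113, plus strand: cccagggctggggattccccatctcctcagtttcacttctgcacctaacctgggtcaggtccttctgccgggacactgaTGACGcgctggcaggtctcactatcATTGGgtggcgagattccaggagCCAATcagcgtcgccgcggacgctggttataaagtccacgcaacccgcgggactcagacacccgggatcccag
H2-K1, chr17:34000328-34000527, minus strand: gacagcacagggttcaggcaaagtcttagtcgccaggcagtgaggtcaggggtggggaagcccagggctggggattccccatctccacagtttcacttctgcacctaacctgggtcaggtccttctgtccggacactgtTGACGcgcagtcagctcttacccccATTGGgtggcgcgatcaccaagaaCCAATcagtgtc
H2-Q4, chr17:35379437-35379636, plus strand: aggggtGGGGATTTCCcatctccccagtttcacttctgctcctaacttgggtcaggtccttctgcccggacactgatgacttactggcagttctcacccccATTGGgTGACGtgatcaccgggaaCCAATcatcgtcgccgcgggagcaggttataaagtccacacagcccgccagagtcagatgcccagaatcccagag
H2-T23, chr17:36032682-36032881, minus strand: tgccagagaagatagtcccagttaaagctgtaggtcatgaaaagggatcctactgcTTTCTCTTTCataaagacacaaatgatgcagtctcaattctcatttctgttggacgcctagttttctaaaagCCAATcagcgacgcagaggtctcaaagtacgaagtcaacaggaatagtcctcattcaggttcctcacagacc
B2m, chr2:122147507-122147706, plus strand: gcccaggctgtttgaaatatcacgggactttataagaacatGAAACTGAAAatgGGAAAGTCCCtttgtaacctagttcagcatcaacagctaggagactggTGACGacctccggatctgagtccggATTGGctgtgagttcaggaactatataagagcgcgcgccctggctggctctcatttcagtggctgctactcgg
Erap1, chr13:74639673-74639872, plus strand: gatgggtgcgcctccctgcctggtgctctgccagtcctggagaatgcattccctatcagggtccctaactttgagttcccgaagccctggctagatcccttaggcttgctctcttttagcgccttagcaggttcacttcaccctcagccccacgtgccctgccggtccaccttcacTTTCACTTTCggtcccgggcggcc

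The Y box was found in 7 of the 8 genes' windows, against 37.4% of all 32851 windows. TGACG, the letters of the X2 core, was found in 5 of 8, against 20.8%. The search took no account of order, and in H2-Q4 TGACG lies after the first Y box, not before it. In Tapbp the matches were Y boxes 248 and 165 bases before the start. In Tap1 they were a Y box 222 bases before it and TGACG 86 before it. The ISRE pattern was found in 3 of 8 (B2m, Erap1 and H2-T23), against 3.44% of all windows. The kappa-B pattern was found in 2 of 8 (B2m and H2-Q4), against 1.63%. The GAS was found in none of the 8, against 8.30% of all windows. These counts cover the exact letters searched, so a gene without a match can still hold a variant of the element. In H2-D1 and H2-K1, ggggattcccc stands where H2-Q4 has the kappa-B match. The lines of H2-D1, H2-K1 and H2-Q4 also hold tttcacttct, close to the ISRE letters but not matching them. No matches overlapped one another. In the lines of H2-D1 and H2-K1 the first capitals are the X2 core, followed by a Y box on each strand; in the line of H2-Q4 a kappa-B element comes first and TGACG follows the first Y box. The lines of H2-D1 and H2-K1 thus hold the same matches in the same order. Whether the matches bear on the levels was not tested. The ISRE began 139 bases before the start in B2m, 124 before it in H2-T23 and 4 before it in Erap1, and the kappa-B element began 126 bases before the start in B2m and 174 before it in H2-Q4. H2-K1 has 2 windows with nearby starts, of which the first is shown. A match is a description of letters and not a measured binding site.

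Of 22 other class I and class I-like heavy chains, 14 were listed. After glucose oxidase 1 was lower by the limit and none higher, with a median log2 ratio of -0.54; with Et2HOBA 5 were lower and 1 higher, with a median of -0.79; between the treated libraries 2 were lower and none higher. H2-T10 had 277, 149 and 103 reads in the control, oxidase and combined libraries, a log2 ratio of -1.35 with Et2HOBA. H2-K2, which the deposited annotation does not class as protein-coding, had 187, 103 and 81 reads (-1.12). Fcgrt, the heavy chain of the neonatal Fc receptor, which binds immunoglobulin G and albumin and also pairs with B2m, had 1330, 782 and 655 reads (-1.02). H2-M3, which presents formylated peptides, went the other way, with 146, 211 and 347 reads and a log2 ratio of 1.18 with Et2HOBA. H2-Q7, named after its values were seen as a neighbour of H2-Q4 in the Q region, had 139, 56 and 22 reads, and 28.4% of its stretches are shared with other genes.

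The immunoproteasome supplies peptides to this pathway, and its catalytic subunits had larger differences from control than the transporter genes. Of 6 genes, the combined library had 3 lower by the limit than control and the oxidase library 1; 2 were lower in the combined than in the oxidase library, and none was higher, with medians of -0.62 (oxidase against control), -1.21 (combined against control) and -0.59 (combined against oxidase). Psmb8, a catalytic subunit, had 292, 109 and 50 reads in the control, oxidase and combined libraries, which put the last at 0.170 of control (95% interval 0.123 to 0.230). Psmb9, which lies beside Tap1 in the MHC, had 259, 118 and 55 reads, and Psmb10 had 1179, 673 and 383. There were 0.190 reads of Psmb9 per read of Tap1 in control (0.165 to 0.217), 0.110 after glucose oxidase (0.0904 to 0.133) and 0.0576 with Et2HOBA (0.0431 to 0.0756), with no overlap between the intervals. Psme2, a subunit of the proteasome activator, had 2262, 1448 and 1289 reads, and 59.3% of its stretches are shared.

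The general chaperones and peptidases of the pathway lay closer to control. Of 13 listed, none was past the limit in any comparison, and the medians were 0.07, 0.15 and 0.05. Calr, the chaperone calreticulin of the loading complex, had the largest difference among them, with 29710, 15502 and 15207 reads and log2 ratios of -0.84 and -0.97 against control. Tapbpl, a relative of tapasin, had 662, 459 and 391 reads (-0.42 and -0.75). Sppl2a, a membrane protease, had 2847, 2979 and 3759 reads, a log2 ratio of 0.39 for the combined library against control, and the peptidase gene Thop1 had 1975, 2282 and 2503 reads (0.33).

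A list of 24 genes held transcription factors of class I promoters and genes of interferon and cytokine signalling. None was lower by the limit and 1 was higher after glucose oxidase. With Et2HOBA 5 were lower and 1 higher, and between the treated libraries 2 were lower and none higher. The medians were -0.08, -0.01 and 0.01. Rfx5, a subunit of the RFX complex that binds the X box, had 739, 577 and 253 reads in the control, oxidase and combined libraries, with log2 ratios of -0.26 and -1.52 against control, and its level with Et2HOBA was 0.408 of that with glucose oxidase alone (95% interval 0.350 to 0.473). Irf1, an activator of class I genes, had 1145, 845 and 452 reads (-0.34 and -1.33). Socs3, a feedback inhibitor of cytokine signalling, was higher, with 194, 437 and 450 reads and log2 ratios of 1.22 and 1.16.

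Of 11 class II genes 4 were listed, none past the limit in any comparison, and their summed reads were 63, 76 and 90.

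**Figure D3:**
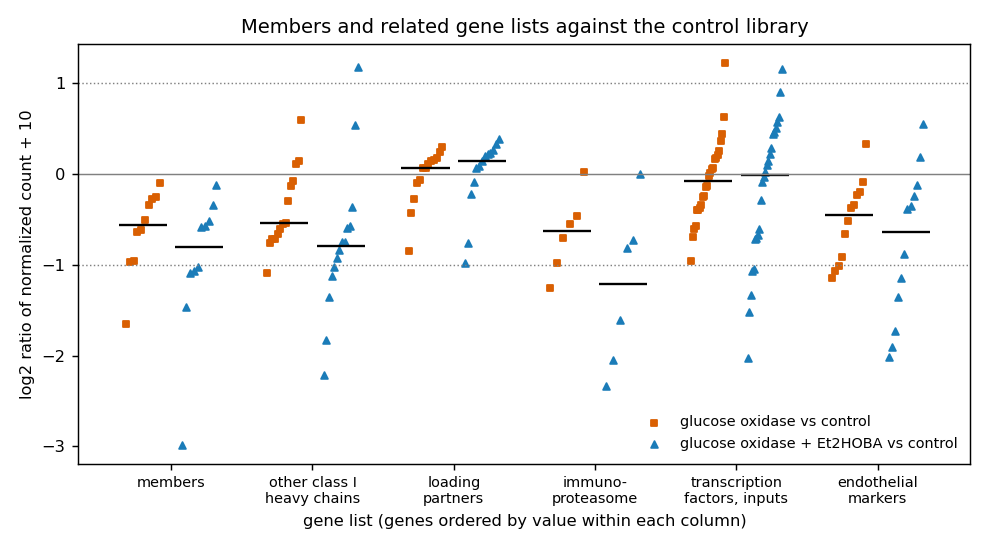
Log2 ratio of normalized count plus 10 against control for the 10 members and 5 related gene lists, for glucose oxidase (squares) and glucose oxidase plus Et2HOBA (triangles); each point is a gene, and short bars are medians. The members' medians are -0.56 and -0.80, those of the immunoproteasome list -0.62 and -1.21, and those of the loading partners 0.07 and 0.15.

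Cell type markers also differed between the libraries. Of 12 endothelial markers, 3 were lower by the limit after glucose oxidase and 5 with Et2HOBA, none higher, with medians of -0.44 and -0.64 and summed normalized counts of 384057, 253822 and 232965 in the control, oxidase and combined libraries. The lowest against control were Tek, Vwf, Cldn5 and Kdr, with log2 ratios of -2.01, -1.90, -1.73 and -1.36 with Et2HOBA, while Emcn stood at 0.55. Of 8 leukocyte markers 4 were listed, with Ptprc, Adgre1, Itgam and Cd3e not among them, and their summed reads of 8413, 17164 and 27897 were nearly all from Cd68, a lysosomal gene. Lyz2, a macrophage lysozyme, had 186, 76 and 86 reads, with log2 ratios of -1.10 and -1.04, and Csf1r had 6 to 12. Of 5 fibroblast markers 2 were listed: Pdgfra had 107, 1325 and 2821 reads and Col1a1 28, 30 and 23. Of 6 smooth muscle markers 5 were listed, and their summed reads of 5014, 3588 and 4095 were nearly all from Smtn, with 4970, 3517 and 3996. Myh11, a smooth muscle myosin, had 19, 35 and 73 reads, with log2 ratios of 0.70 and 1.499, and Acta2 had 8, 18 and 13. Their part in the class I values was not tested.

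On chromosome 17, 7 of the 10 genes lie between 33915899 and 36032855 (GRCm38), the MHC. Among the 84 other listed protein-coding genes of this stretch, H2 genes left out, the medians of the log2 ratio were 0.09 (oxidase against control), 0.05 (combined against control) and -0.08 (combined against oxidase). Of these 84, 3 were lower by the limit after glucose oxidase and 8 with Et2HOBA, which is 9.52%. Of the 7 class I pathway genes, 1 (H2-Q4) and 4 were lower, with medians of -0.64 and -1.02. The shares lower by the limit were 8.61% and 8.05% of all genes, and 4.77% and 9.30% of protein-coding genes. The immunoproteasome genes Psmb8 and Psmb9 are among the 84.

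**Figure D4:**
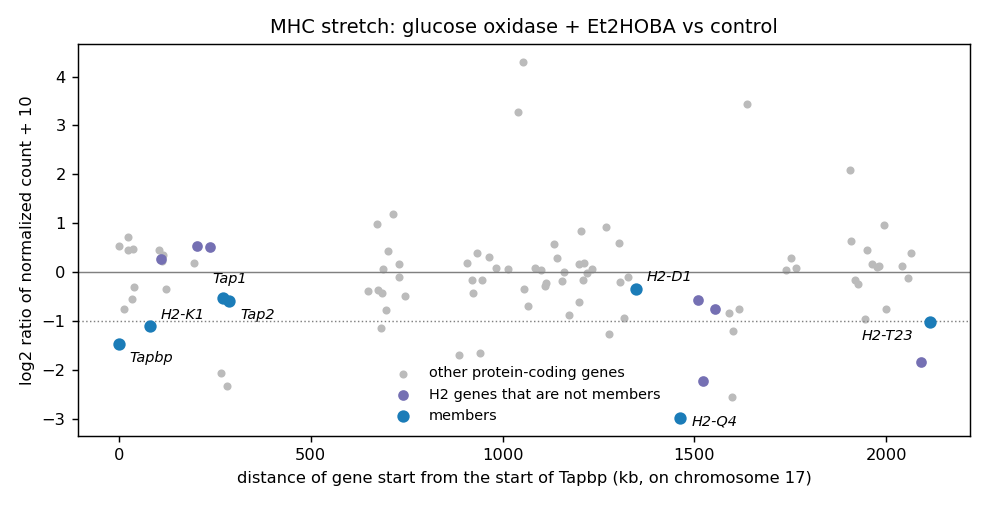
Log2 ratio of glucose oxidase plus Et2HOBA against control for protein-coding genes of the MHC stretch, by distance of the lower gene coordinate from that of Tapbp in kilobases; blue points are the 7 members, purple points other H2 genes and grey points all others. All 7 members lie below 0, and the 84 grey points have a median of 0.05.

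The genes nearest to H2-Q4 in their pair of log2 ratios against control, among genes with a mean normalized count of 100 or more over the 3 libraries, were Tmem158 (9304, 2788 and 1175 reads; distance 0.017), Fanci (429, 117 and 47; 0.054) and Sema7a (1097, 305 and 131; 0.063), none of them a class I gene. Nearest to Nlrc5 were Mertk, Gm20008 and Larp4, with distances of 0.016 to 0.020, and the low reads of Nlrc5 make its own position uncertain. A distance over 3 libraries rests on 2 ratios that share the control library.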

How the data were processed

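Stranded libraries were made from polyadenylated RNA, per the labels' protocols, with 1 library per group. The submitters' processing notes name STAR, featureCounts and mm10, with no role or order. The authors deposited raw read counts per gene for control and for glucose oxidase plus Et2HOBA, with log-normalized values and their log2 difference, per the file headers. For glucose oxidase against control the authors deposited only gene symbols with log2 differences.

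In the table with counts, the log-normalized value of a gene is a constant plus a multiple of an inverse hyperbolic sine. The sine is taken of the root of the gene's scaled count, and the multiple puts it in log2 units. That form was solved for the missing library, with its scaling constants fitted to bring the reads close to whole numbers. The reads then lay within 0.01 of whole numbers in all 18258 genes whose symbol matched (29 others were left out). After adding 1 read to every control count, with the constants not refitted, 3.30% did so. The 7 deposited differences between the treated libraries were met within 4.94e-10, with 1 fitted constant per library. The recovery was tested on simulated data.

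Normalized counts used median-of-ratios size factors of the 3 libraries (1.03, 0.965 and 1.04; DESeq2 1.42.0). Alternatives were total-count and TMM scaling (edgeR 4.0.16), a pseudocount of 1, the deposited scale, a minimum mean of 10 and other limits. Intervals used SciPy 1.17.1. Of 17851 gene IDs with the same version in GENCODE M21, all had the same position, so coordinates are GRCm38. Exon lengths and shared 50-base stretches come from that release, and promoters from RefSeq. No count model was fitted, for lack of replicates. All members were named; of each other list, up to 4 genes with a mean normalized count of 100 or more and the largest ratio of glucose oxidase plus Et2HOBA to control, and markers that define a cell type. A gene that this rule names is not reported here. Members, lists and rules were chosen with earlier results of these data known.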

Additional observations from a re-analysis of the deposited data

How the results depend on the processing

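No paired analysis was possible because each group has 1 library. With no replicates, only counting error could be given, and depth left Nlrc5 unplaced in all 3 comparisons and H2-K1 between the treated libraries. All 3 medians over the 10 genes stayed below 0 under TMM scaling and total-count scaling. They were also below 0 with a pseudocount of 1 and the minimum mean of 10, but these settings could not have turned them. A pseudocount cannot change the sign of a ratio, and all 10 genes passed the minimum mean. Total-count scaling moved the all-gene medians down, to -0.06, -0.13 and -0.08, and TMM scaling left them at -0.01, -0.0009 and -0.004. Neither shift could have brought the medians of the 10 genes above 0. Under total-count scaling the median of the 10 genes with Et2HOBA against control was -0.95, and B2m between the treated libraries turned to -0.0503. After glucose oxidase 3 of the 10 genes rather than 1 passed the limit. Over all 18258 genes 2409 rather than 2315 passed it, in either direction. On the scale of the authors' deposited log2 values 3 genes rather than 5 passed with Et2HOBA against control. Over the 3 genes with no shared stretch (B2m, Erap1 and Nlrc5), 0, 1 and 0 passed in the comparisons of glucose oxidase with control, Et2HOBA with control and the treated libraries; the median with Et2HOBA was -0.57 against control and turned to 0.0439 against glucose oxidase. In the same order 6, 8 and 3 genes passed at a limit of 0.5, and 0, 1 and 0 at a limit of 2. The shares of all genes at these limits and on the deposited scales were not computed. The counts there cannot be read as particular to the 10 genes. Of 120 single-gene values under the scalings, the pseudocount and the deposited scales, 101 lay within their counting interval, 18 moved beyond it and kept their direction, and 1, B2m above, reversed. The authors' table of the treated libraries lists none of the 10 genes. Their form with the constants fitted to that table, an alternative chosen after seeing the data, gave a median of -0.16 between the treated libraries, with 0 of the 10 past the limit and H2-Q4 at -0.46.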
